A study of Mus musculus with 8 samples.

Results

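Gene expression was compared between mouse embryonic fibroblasts that lack Daxx and received DaxxA and the same kind of knockout fibroblasts that received a vector. The 6 arrays of this comparison were taken by their sample titles from the 8 arrays of the series: 2 arrays of DaxxA cells and 4 arrays of vector cells. The remaining 2 arrays, of DaxxB cells, were not used. All cells carried the Daxx knockout and were of FVB/N background, so the vector cells are a knockout control and no cells with an intact Daxx gene enter the comparison. The stated aim was to find downstream targets of Daxx. Total RNA from cultured cells was labelled and hybridised to an Affymetrix mouse gene array, and each gene's level is a log2 signal, on which a difference of 1 is a 2-fold change. The labels do not explain the letter A or say whether the cells were a clone or a pool. They also do not say whether arrays of a group came from separate cultures, so the p-values cover the spread among these 6 samples alone, and that spread may be technical.

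Daxx is a nuclear protein that acts with Atrx as a chaperone placing the histone variant H3.3 into chromatin, largely at repeats, telomeres and other heterochromatin. It is also found in PML nuclear bodies, binds SUMO-modified proteins, and represses or assists many transcription factors. Embryonic fibroblasts are mesenchymal cells that build extracellular matrix and secrete ligands and antagonists of the Wnt, BMP, FGF and PDGF pathways.

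The probe set for Daxx read 7.34, 6.85, 7.27 and 7.16 in the vector arrays and 7.35 and 7.36 in the DaxxA arrays. Both DaxxA values lay above all 4 vector values, by a small margin over vector replicate 1. The difference was 0.20 on the log2 scale (SE 0.142, 95% confidence interval -0.14 to 0.55), the exact two-sided permutation test gave p = 0.133, the smallest p that 2 against 4 arrays can give, and the adjusted p of limma was 0.831. Without vector replicate 2 the difference was 0.10. Whether the probes lie inside the deleted part of the gene is not known here, so this reading does not check the labels.

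Vector replicate 2 stood apart from the other arrays. Its interquartile range was 2.79 against 3.33 to 3.39 in the other 5 arrays, and it correlated with the others at 0.969 on average, where they reached 0.990 to 0.991. Olfactory receptor genes, which serve as a guide to background signal, had a median of 5.21 on it and of 4.65 to 4.68 on the others. Over all genes the SD of the difference between the 2 DaxxA arrays was 0.103, that of the vector pairs without replicate 2 was 0.0907 to 0.114, and that of a DaxxA array against vector replicate 1, 3 or 4 was 0.176 to 0.193. Pairs that include vector replicate 2 had an SD of 0.409 to 0.440. The list counts below are therefore given over all 6 arrays and again over the 5 arrays without vector replicate 2.

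Most genes that differed were lower in DaxxA cells. Of 19938 genes, 194 passed the test over all 6 arrays (limma, Benjamini-Hochberg adjusted p under 0.05), which is 0.973% of the genes: 34 were higher in DaxxA cells (0.171%) and 160 were lower (0.802%). Among them 42 changed at least 2-fold, 2 upward and 40 downward. Over the 5 arrays the count was 2156 (10.8%), with 833 higher (4.18%) and 1323 lower (6.64%), and 56 changed at least 2-fold, 4 upward and 52 downward. All 194 genes also passed there with the same sign, and 41 of the 42 genes changed at least 2-fold in both fits. The share of called genes that were lower was 82.5% over 6 arrays and 61.4% over 5. The median change of all genes was -0.05 over 6 arrays and -0.0084 over 5.

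The smallest change called over 6 arrays was 0.40 on the log2 scale, and over 5 arrays it was 0.17. Of the 194 called genes, 190 had a mean above the 95th percentile of the olfactory receptor genes, a log2 signal of 6.06. Both DaxxA values lay above or below all 4 vector values for 5168 genes, 25.9% of those tested, and for all 194 called genes. Single arrays decided the 6-array count: it was 42 without vector replicate 1, 31 without replicate 3 and 56 without replicate 4. It was 0 without either DaxxA replicate, where limma gave 945 genes (without DaxxA replicate 1) and 780 genes (without DaxxA replicate 2) at an unadjusted p under 0.05. With vector replicate 2 already left out, leaving out 1 further array gave 893 to 1983 called genes, and each of these 5 sets held all 194 genes. In the sets that leave out a DaxxA array, with 1223 and 893 called genes, the lone DaxxA array is assumed to vary like the vector arrays. The same assumption holds for the fits above without a DaxxA array. The counts with 2 arrays left out were added after the data had been seen.

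**Figure D1:**
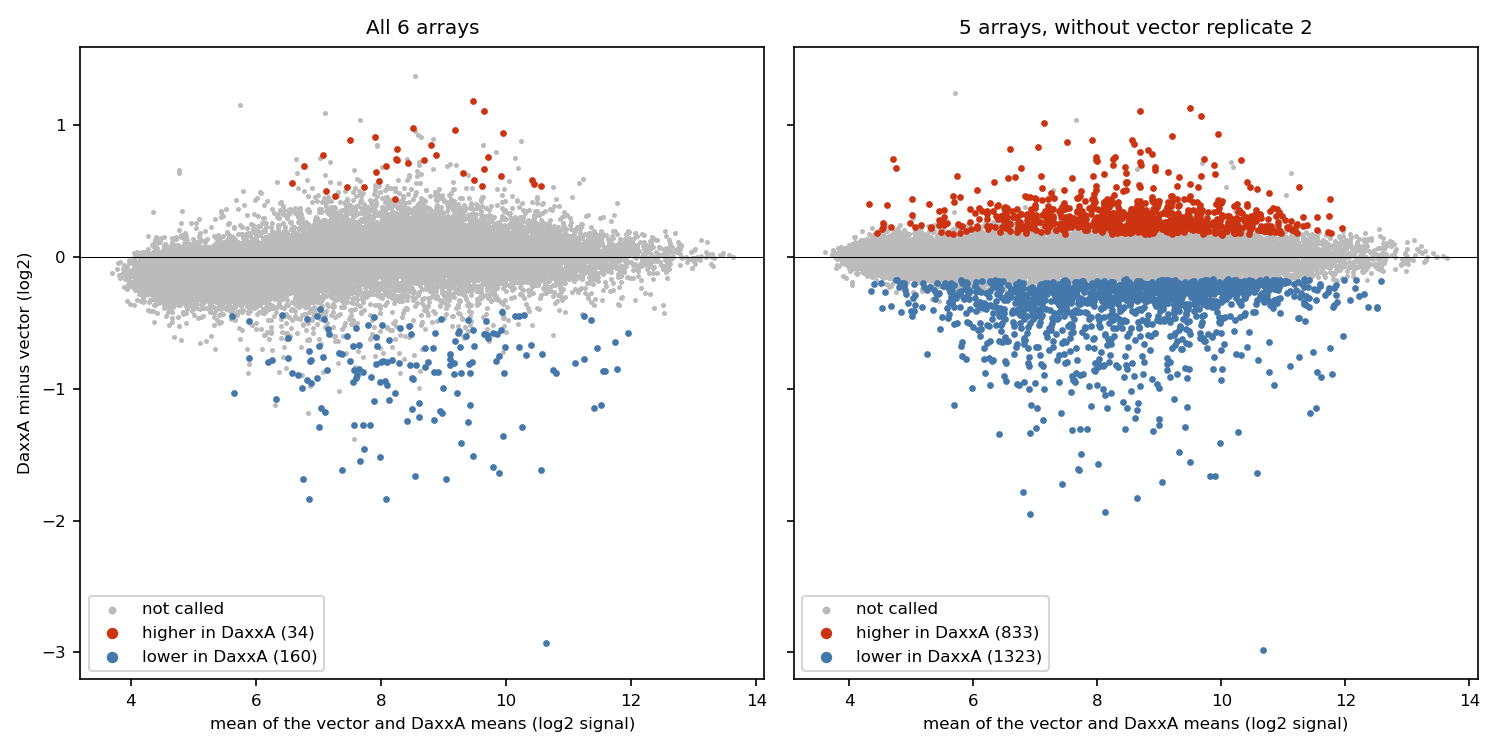
Each point is 1 of 19938 genes, with the mean of the vector and DaxxA means (log2 signal) on the horizontal axis and the DaxxA minus vector difference (log2) on the vertical axis, for all 6 arrays (left) and for the 5 arrays without vector replicate 2 (right). Red points are genes called higher in DaxxA cells (34 left, 833 right) and blue points are genes called lower (160 left, 1323 right), while grey points were not called; the lowest point in both panels is Sfrp1.

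The called gene with the greatest change over 6 arrays was Sfrp1, a secreted antagonist that binds Wnt ligands. It read 12.20, 11.94, 12.16 and 12.12 in the vector arrays and 9.21 and 9.14 in the DaxxA arrays. The fall was 2.93 on the log2 scale, or 7.61-fold (SE 0.0925, n = 4 and 2, limma adjusted p = 0.000784), against an SD of 0.116 among the vector arrays. Sfrp1 was bright in vector cells, and both DaxxA arrays lay far below every vector array.

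Next in order came Mme, the cell-surface endopeptidase neprilysin, which read 7.75, 7.43, 7.82 and 8.09 in vector and 5.97 and 5.91 in DaxxA cells. Saa3, an acute phase serum amyloid protein, read 9.10, 8.70, 9.16 and 9.03 against 7.13 and 7.20, a 3.57-fold fall. Rspo2, a secreted R-spondin that strengthens Wnt signalling, read 7.73, 7.31, 7.78 and 7.57 against 6.02 and 5.79. The DaxxA signals of Mme and Rspo2 lay below the olfactory guide value of 6.06 given above, in the range of background, so the size of their falls and their place in the order are uncertain. Grem1, a secreted BMP antagonist, read 9.96, 9.83, 9.83 and 9.92 against 8.14 and 8.26 and fell 3.21-fold (SE 0.0758 on the log2 scale, limma adjusted p = 0.00176). The groups did not overlap for any of these genes.

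Genes 6 to 15 in the order of falls were Svep1, Rasl11a, Cd34, Ppbp, Dcn, Cemip, Gria3, Gpc4, Fbln5 and Fat4, with falls of 3.16-fold to 2.66-fold. Svep1, a large extracellular adhesion protein, read 9.53, 8.86, 9.56 and 9.57 in vector and 7.79 and 7.65 in DaxxA cells. Cd34, a sialomucin of stromal and blood progenitors, read 11.42, 11.30, 11.39 and 11.39 against 9.81 and 9.71. In both, the lowest vector value was that of replicate 2, and it still lay more than 1 log2 unit above the higher DaxxA value. Ppbp encodes a chemokine, Gria3 a glutamate receptor subunit, Fat4 a giant cadherin, and Rasl11a a small GTPase of the Ras family. The matrix genes among them are taken up below.

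The called gene with the highest change upward over 6 arrays was Gfra2, the co-receptor for the ligand neurturin. It read 8.96, 8.71, 8.92 and 8.94 in vector and 10.08 and 10.05 in DaxxA cells, a 2.27-fold rise (SE 0.0908 on the log2 scale, limma adjusted p = 0.00569). Gsta4, a glutathione transferase that acts on lipid peroxidation products, read 9.09, 8.97, 9.11 and 9.22 against 10.22 and 10.18, a 2.16-fold rise. These were the 2 called genes that rose at least 2-fold over 6 arrays. Leaving out vector replicate 2 added Plxdc2, a membrane protein gene, with 8.18, 7.06, 8.10 and 8.13 in vector and 9.20 and 9.27 in DaxxA cells, and Prl2c5, of the prolactin family of close copies, whose changes were 1.10 and 1.01 over those 5 arrays. Over 6 arrays their changes were 1.37 and 1.09 and did not pass (limma adjusted p = 0.190 and 0.0630). Mpp1, a membrane-associated scaffold of the guanylate kinase family, read 9.44, 9.48, 9.50 and 9.51 against 10.42 and 10.41, with hardly any spread in either group.

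The other genes among the 15 highest rose by 0.73 to 0.97 on the log2 scale. They were Parvb, Pcolce2, Sh3bgrl2, Tagln, Prrg4, Ptgr2, Miga1, Sox11, Armcx2, Prxl2a, Tgm2 and Adgrl3. Ptgr2 is a prostaglandin reductase, Sox11 a transcription factor, Tgm2 a transglutaminase that crosslinks proteins, and Adgrl3 an adhesion receptor of the latrophilin family. Sox11 read 8.43, 8.52, 8.52 and 8.53 in vector and 9.28 and 9.26 in DaxxA cells. Tgm2 read 7.83, 7.90, 7.89 and 7.91 against 8.71 and 8.52. All vector values of both genes lay below both DaxxA values, as the choice of the 15 highest genes required. Parvb and Miga1 were close to the threshold, with limma adjusted p-values of 0.0499 and 0.0498.

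**Figure D2:**
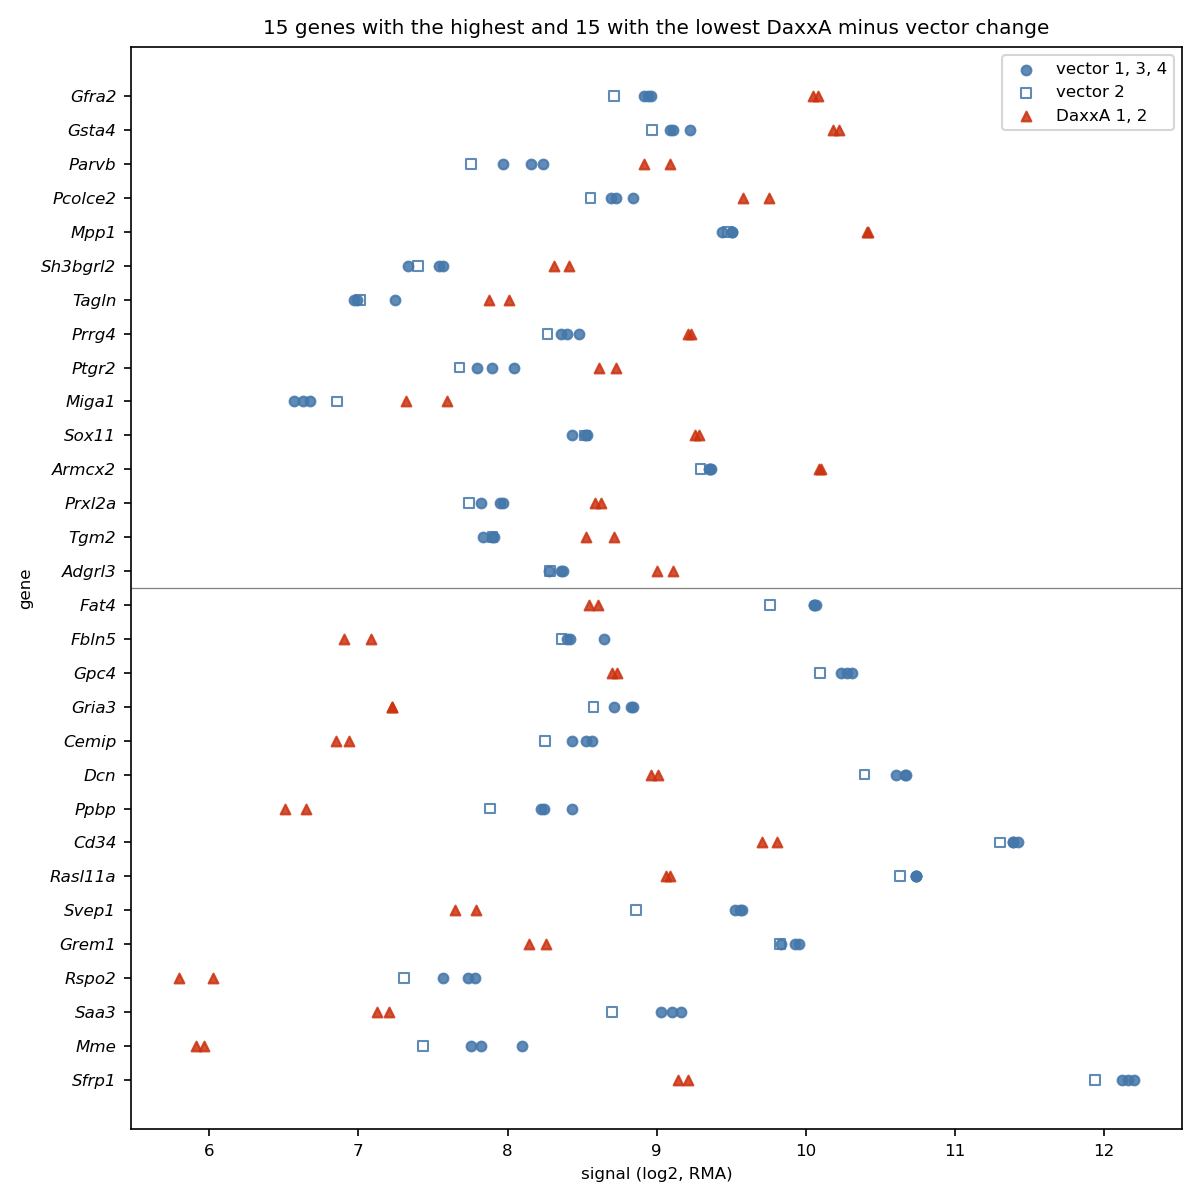
The log2 signal (horizontal axis) of the 15 called genes with the greatest rise and the 15 with the greatest fall in DaxxA cells, 1 gene per line, with each array as a point: vector replicates 1, 3 and 4 as filled circles, vector replicate 2 as an open square and the DaxxA replicates as triangles. The DaxxA points lie apart from all 4 vector points for each of the 30 genes, which the choice of genes required. Sfrp1, at the bottom, shows the widest gap.

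The genes were then described in 34 lists, 24 of pathways or families and 10 of markers, and 17 of the lists held at least 1 gene called over 6 arrays (29 without vector replicate 2). No list was tested as a set. The counts are to be read against the shares of all genes given above, 0.973% called over 6 arrays and 10.8% over 5. These shares depended on signal. Over 5 arrays 1.20% of genes at log2 signals of 3.60 to 5.51 were called, and 5.88% at 5.51 to 6.99. From 6.99 to 8.92 and from 8.92 to 13.64 the share was 18.1% in each. Over 6 arrays the shares in this order were 0%, 0.301%, 1.69% and 1.91%. The shares of all genes are therefore low marks for lists of bright genes.

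**Figure D3:**
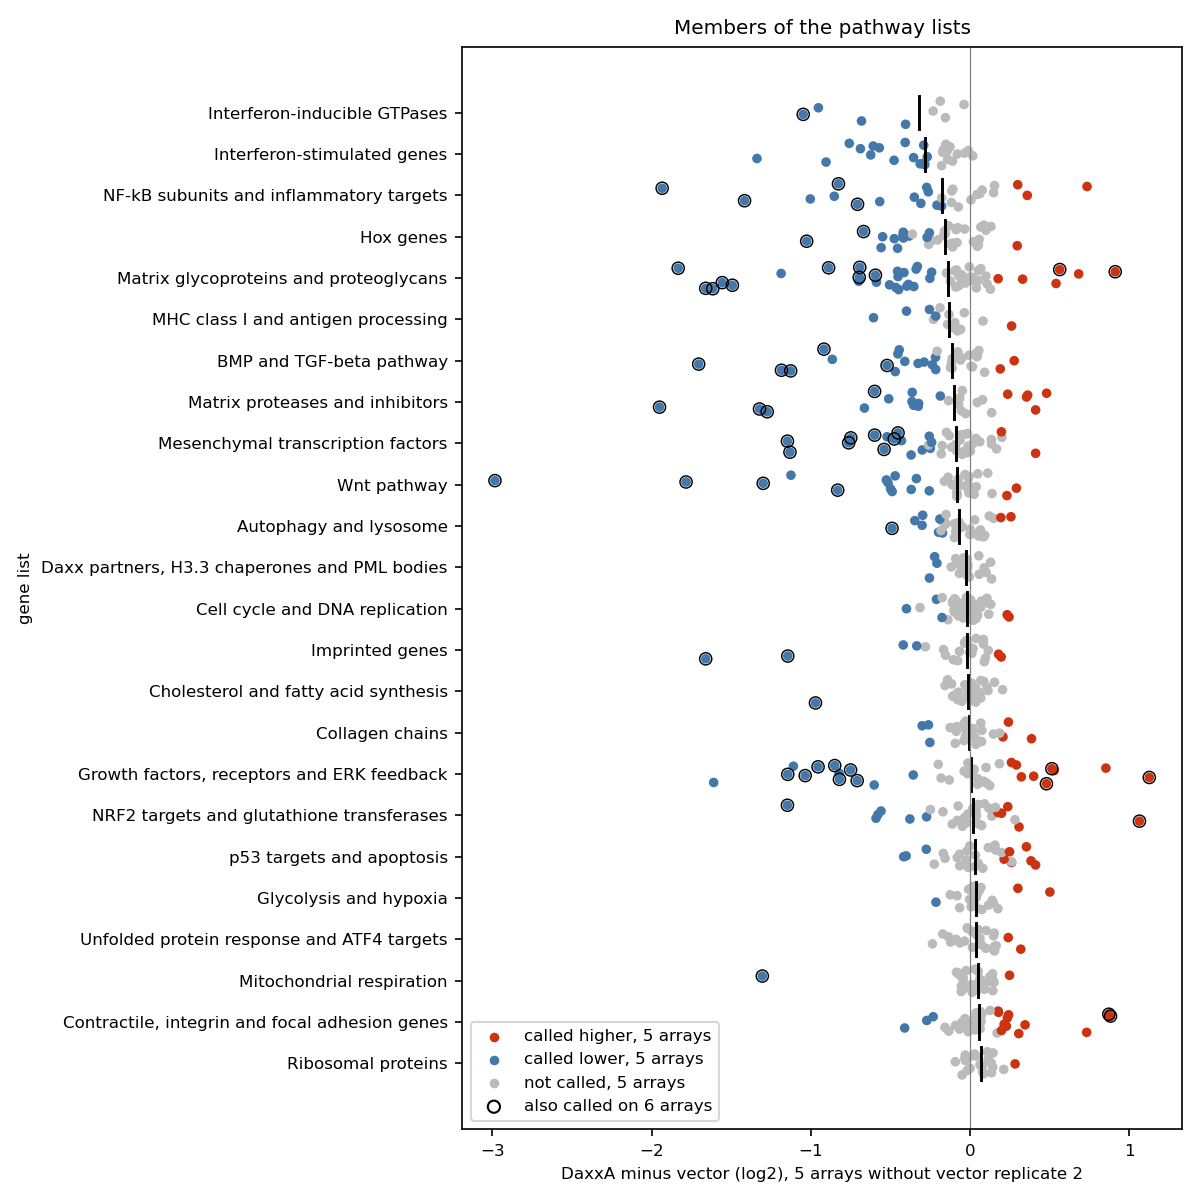
DaxxA minus vector change (log2, 5 arrays without vector replicate 2) of each measured member of the 24 pathway lists, 1 list per line, with the median as a black bar. Red and blue points were called higher and lower over these 5 arrays, grey points were not called, and a black ring marks genes also called over 6 arrays; the median was lowest for the interferon-inducible GTPases (-0.32) and the interferon-stimulated genes (-0.28).

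In the Wnt pathway, 4 of 35 measured genes fell and 0 rose over 6 arrays: the antagonist Sfrp1, the R-spondin Rspo2, the receptor Fzd4 and Rnf43, a ubiquitin ligase that removes Wnt receptors from the surface. Rnf43 read 7.76, 7.64, 7.61 and 7.62 in vector and 6.35 and 6.37 in DaxxA cells, a change of -1.29. Fzd4 read 7.36, 7.11, 7.36 and 7.22 against 6.58 and 6.39, a change of -0.78. In the 5-array fit, 13 genes were lower and 2 were higher, and the median of the list was -0.08. The 9 further lower genes included the ligand Wnt5a, with 7.54, 6.92, 7.44 and 7.53 in vector and 6.40 and 6.35 in DaxxA cells, and the ligand Wnt4, the antagonist Sfrp2, the R-spondin Rspo1 and the receptors Fzd1, Fzd2, Fzd7 and Fzd8. Of genes of the list that Wnt signalling commonly raises, Lef1 and Ccn4 were higher by 0.29 and 0.23 over 5 arrays, while Rnf43 was lower, as given above. Axin2, Nkd1 and Znrf3 differed by -0.08, -0.11 and 0.11 and were not called in either fit. Axin2 lay close to the olfactory guide value in both groups, so little can be read from it. For Lef1, vector replicate 2, at 7.52, lay above both DaxxA values, and the gene did not pass over 6 arrays (limma adjusted p = 0.827).

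In the BMP and TGF-beta pathway, 5 of 35 genes fell and 0 rose over 6 arrays. The ligand Bmp4, a bright gene, read 12.08, 11.88, 11.98 and 11.99 in vector and 10.85 and 10.81 in DaxxA cells, a 2.22-fold fall (limma adjusted p = 0.00422). Bmp2 read 6.40, 5.89, 6.30 and 6.07 against 5.19 and 5.06, near the olfactory guide value in vector arrays and below it in DaxxA arrays. The antagonists Grem1 and Chrdl1 fell as well, Chrdl1 by 0.51 on the log2 scale. The co-receptor Tgfbr3, betaglycan, read 9.91, 9.77, 9.86 and 9.93 against 9.01 and 8.95. Ligands and antagonists of BMP therefore both stand in the list of falls.

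Over 5 arrays, 15 genes of the pathway were lower and 2, Bmp7 and Inhba, were higher. The targets Id1 and Id3 differed by -0.33 and -0.29 over 5 arrays and by -0.37 and -0.09 over 6, where neither passed. Id3 read 8.86, 8.08, 8.80 and 8.91 in vector and 8.59 and 8.55 in DaxxA cells, so that vector replicate 2 lay below both DaxxA arrays and the other vector arrays above them. The inhibitory genes Smad6 and Bambi and the receptor Tgfbr2 were also among those lower over 5 arrays, with changes of -0.45, -0.47 and -0.44.

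Among growth factors, their receptors and genes of ERK feedback, 7 of 38 fell and 3 rose over 6 arrays. The insulin-like growth factors both fell: Igf1 read 8.73, 8.75, 8.65 and 8.85 in vector and 7.76 and 7.66 in DaxxA cells, and Igf2 read 7.52, 7.62, 7.56 and 7.74 against 6.46 in both. Fgf7, a fibroblast ligand for epithelial receptors, fell by 0.69, its receptor Fgfr2 fell by 0.81 and Kitl, the ligand of the receptor Kit, fell by 0.69 on the log2 scale. Within the PDGF family the members moved in different directions. The ligand Pdgfa read 10.30, 10.23, 10.30 and 10.34 in vector and 10.85 and 10.81 in DaxxA cells and rose by 0.54, while the ligand Pdgfd fell by 0.92 and the receptor Pdgfrb, with 10.33, 10.05, 10.29 and 10.26 against 9.49 and 9.41, fell by 0.79.

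The third gene of this list that rose, beside Gfra2 and Pdgfa, was Etv4, a transcription factor that ERK signalling raises, at 0.46. Without vector replicate 2 the list held 12 lower and 9 higher genes. The additions included the receptor Pdgfra (9.27, 8.76, 9.25 and 9.14 in vector, 8.13 and 8.09 in DaxxA cells), with an adjusted p of 0.0539 over 6 arrays by limma, and the ligand Pdgfb, higher by 0.85, with 0.0558. Fgf10, a ligand of Fgfr2, read 8.54, 7.57, 8.54 and 8.40 in vector and 6.90 and 6.87 in DaxxA cells. Its change was -1.61 over 5 arrays and -1.38 over 6, where the adjusted p of limma was 0.125 and vector replicate 2 lay between the other vector arrays and the DaxxA arrays. The median of the list was 0.01 over 5 arrays, close to that of all genes.

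**Figure D4:**
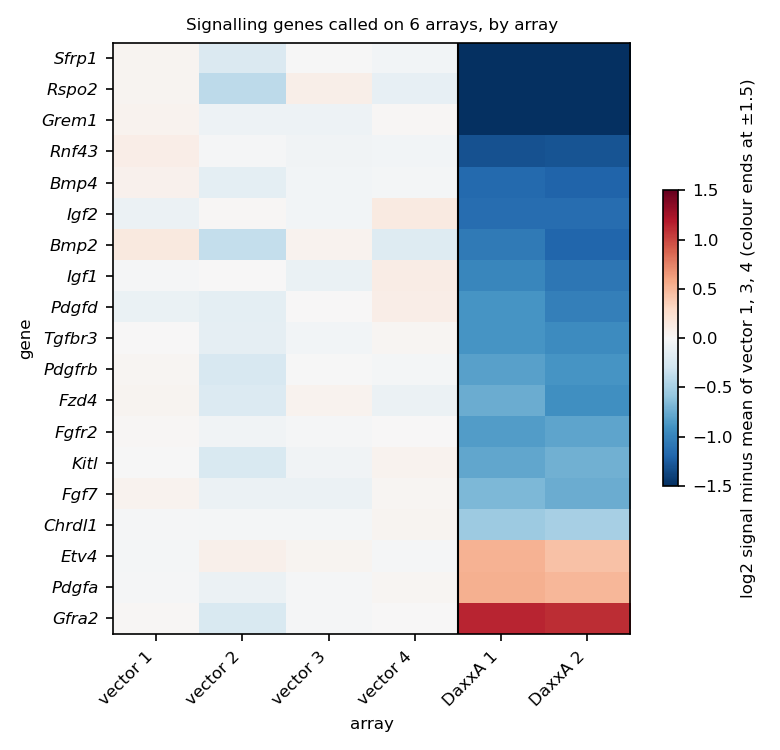
Log2 signal minus the mean of vector replicates 1, 3 and 4, by array (columns) for the 19 genes of the Wnt, BMP and TGF-beta, and growth factor lists that were called over 6 arrays (lines); blue is lower, red is higher, and the colours end at a difference of 1.5 in either direction. The 2 DaxxA columns resemble each other, with 16 genes lower and Etv4, Pdgfa and Gfra2 higher.

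Of NF-kB subunits and inflammatory targets, 4 of 27 genes fell and 0 rose over 6 arrays. Cxcl12, a chemokine that retains blood progenitors in their niche, read 10.71, 10.46, 10.66 and 10.70 in vector and 9.29 and 9.27 in DaxxA cells, a 2.56-fold fall. Saa3, Vcam1 and Ccl5 were the others. Vcam1, an adhesion molecule for leukocytes, read 11.53, 11.45, 11.49 and 11.56 against 10.70 and 10.71. Ccl5, a chemokine for T cells, read 9.10, 9.13, 9.20 and 9.29 against 8.54 and 8.44. Over the 5 arrays, 13 genes were lower, among them the chemokines Cxcl5, Cxcl1, Ccl7, Ccl20 and Ccl2 and the iron-binding protein Lcn2. The cytokine Il6, also lower there, lay below the olfactory guide value in both groups. Tnfaip2, Lif and Traf1, the last also below that value, were higher there, Tnfaip2 by 0.74 with 7.59, 7.20, 7.62 and 7.65 in vector and 8.40 and 8.31 in DaxxA cells.

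Interferon-stimulated genes encode antiviral proteins that cells raise in response to interferon, and a repeated GAAA element is common in their promoters. None of the 27 measured genes of this list passed over 6 arrays by limma, and 15 were lower and 0 higher without vector replicate 2. The median change was -0.27 over 6 arrays and -0.28 over 5, with 27 and 26 of the 27 genes below 0. For 17 of the 27 both DaxxA values lay below all 4 vector values, against 2756 of all 19938 genes. The medians of all genes were -0.05 and -0.0084. For genes at log2 signals of 3.60 to 5.51 they were -0.12 and -0.0020. The count below 0 over 6 arrays therefore says little about dim members. Of the 8 interferon-inducible GTPases, Gbp7 fell over 6 arrays and 4 were lower over 5, and all 8 lay below 0. Because the Gbp genes are close copies of each other, their probe sets may share signal.

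The promoter stretches around the GAAA element are shown for 6 genes of these lists that were lower without vector replicate 2 (Ifit1, Gbp7, Gbp3, Cxcl10, Stat2 and Ifit3) and for 2 that were not called (Irgm1 and Oas1a), since both kinds carry it. Of these, Oas1a lay below the olfactory guide value on every array. They come from RefSeq promoter windows on build GRCm38.p6, read 5′ to 3′ on the gene's strand, with up to 30 bases on each side of a match. Capitals mark the matches to GAAANNGAAA or its reverse complement TTTCNNTTTC.
Ifit1, chr19:34640755-34640843, plus strand: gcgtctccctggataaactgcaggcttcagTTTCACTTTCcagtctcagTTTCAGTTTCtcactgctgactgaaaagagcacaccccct
Gbp7, chr3:142530253-142530322, plus strand: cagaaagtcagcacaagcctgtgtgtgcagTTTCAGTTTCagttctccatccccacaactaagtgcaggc
Gbp3, chr3:142559969-142560043, plus strand: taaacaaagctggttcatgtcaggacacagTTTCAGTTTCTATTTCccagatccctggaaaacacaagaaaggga
Cxcl10, chr5:92349063-92349132, minus strand: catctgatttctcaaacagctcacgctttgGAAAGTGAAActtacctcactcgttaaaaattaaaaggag
Stat2, chr10:128270248-128270315, plus strand: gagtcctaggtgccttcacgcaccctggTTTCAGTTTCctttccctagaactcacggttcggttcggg
Ifit3, chr19:34583343-34583446, plus strand: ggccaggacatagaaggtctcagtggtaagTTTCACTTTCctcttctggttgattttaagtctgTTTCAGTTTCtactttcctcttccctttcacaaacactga
Irgm1, chr11:48871421-48871480, minus strand: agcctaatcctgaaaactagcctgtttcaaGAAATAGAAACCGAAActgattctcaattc
Oas1a, chr5:120907526-120907575, minus strand: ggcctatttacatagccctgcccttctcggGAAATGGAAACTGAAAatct

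The element was searched on both strands of the windows from 250 bases before to 50 bases after each start, and overlapping matches were counted as 1 window. It was in 625 of all 19116 windows (3.27%). A window was found for 20 of the 27 interferon-stimulated genes and 4 of the 8 GTPases. The former had the element in 11 of 22 windows and the latter in 4 of 5. Among members of both lists that were lower without vector replicate 2 it was in 7 of 16 windows (43.8%), and among members not called in 8 of 11 (72.7%). Members not called include Oas1a, Oas3 and Rsad2, which carry the element and lay below the olfactory guide value by their mean. A fall can hardly be seen at that level, so the 2 shares do not compare genes that fell with genes that did not. Of the genes called lower over 6 arrays it was in 10 of 137 windows (7.30%), and of those called higher in 2 of 38 (5.26%). In the 5-array fit the shares were 4.11% of 1315 windows for lower and 4.40% of 841 windows for higher genes.

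The lowest member of the interferon lists was Ifit1, which binds foreign RNA ends, with 7.53, 6.97, 7.56 and 7.66 in vector and 6.22 and 6.28 in DaxxA cells. Its change was -1.18 over 6 arrays (limma adjusted p = 0.0674) and -1.34 over 5 (limma adjusted p = 1.43e-06). Gbp7, with a promoter match shown above, read 8.74, 8.34, 8.63 and 8.60 against 7.74 and 7.47, a 1.96-fold fall. The DaxxA arrays lay below every vector array in both genes. Irf9, a transcription factor of the interferon response, read 8.52, 8.23, 8.51 and 8.42 against 7.94 and 7.78, and Cxcl10, a bright chemokine gene, read 11.56, 11.60, 11.56 and 11.60 against 11.23 and 11.30. Neither passed over 6 arrays (limma adjusted p = 0.105 and 0.106). Dhx58, an RNA sensor of the RIG-I family, and Usp18, which removes the interferon-induced modifier Isg15, differed by -0.90 and -0.76 over 5 arrays. The DaxxA signals of Dhx58, 6.04 and 6.06, lay at the olfactory guide value, so the size of its fall is uncertain. The members at the other end were near 0: Irf7 was at 0.02 over 5 arrays. Irf7 lay below the olfactory guide value on every array, so little can be read from its lack of change. By their mean, 20 of the 27 interferon-stimulated genes and 5 of the 8 GTPases lay above that value.

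**Figure D5:**
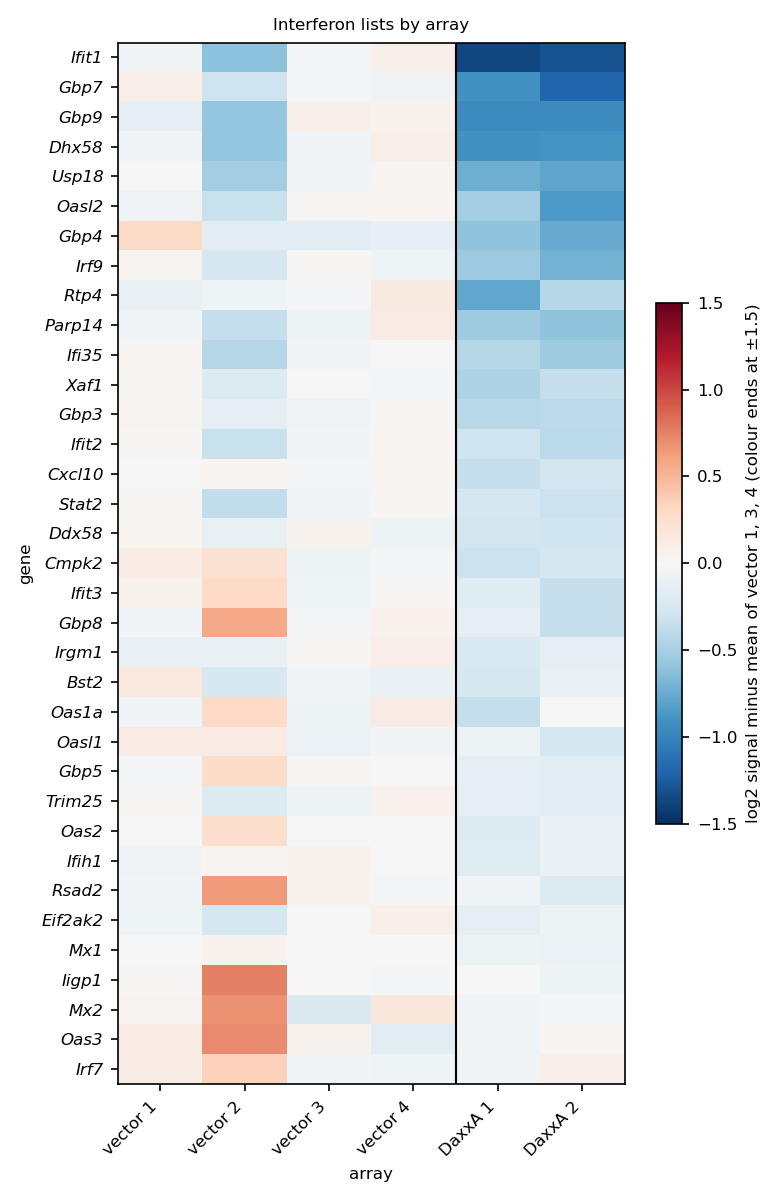
Log2 signal minus the mean of vector replicates 1, 3 and 4, by array (columns) for the 35 measured genes of the interferon lists (lines, ordered by their change over 5 arrays); blue is lower, red is higher, and the colours end at a difference of 1.5. Both DaxxA columns are blue for the upper part of the plot, while vector replicate 2 is lower than the other vector arrays for some genes (Ifit1, Gbp9, Dhx58) and higher for others (Oas3, Iigp1, Rsad2).

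None of the 15 genes in the list for class I antigen presentation passed over 6 arrays by limma. Over 5 arrays, 4 were lower and 1 higher. The lower genes were Psmb8 and Psmb9, subunits of the immunoproteasome, and Tap1 and Tap2, which form the peptide transporter. Psmb8 read 7.50, 7.38, 7.48 and 7.50 in vector and 7.05 and 6.73 in DaxxA cells, and Tap1 read 7.74, 7.73, 7.68 and 7.68 against 7.25 and 7.35. H2-M3 was higher by 0.26 over 5 arrays.

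Hox genes, which mark position along the body axis, gave 2 falls and 0 rises among 37 genes over 6 arrays. Hoxb13 read 8.12, 7.79, 8.15 and 8.03 in vector and 7.10 and 7.05 in DaxxA cells. Hoxc8 read 9.74, 9.65, 9.46 and 9.56 against 9.00 and 8.84. Without vector replicate 2, 12 were lower, from the HoxA, HoxB and HoxC clusters, and Hoxa3 was higher by 0.30. Both DaxxA values lay below all vector values in 20 of the 37 genes and above them in 1. Over all 19938 genes they lay below in 2756 and above in 2412.

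Mesenchymal transcription factors gave 8 falls and 0 rises among 43 genes over 6 arrays. They were Prrx1, Ebf3, Osr1, Snai2, Tbx3, Foxf2, Six2 and Twist2. Prrx1, a homeobox factor of limb and craniofacial mesenchyme, read 12.07, 12.00, 12.08 and 12.16 in vector and 11.00 and 10.91 in DaxxA cells, a 2.18-fold fall of a bright gene. Osr1 read 11.67, 11.67, 11.60 and 11.61 against 10.86 and 10.87, and Snai2, a repressor of epithelial genes, read 10.66, 10.68, 10.73 and 10.67 against 9.91 and 9.97. In each of these the 4 vector arrays, replicate 2 included, lay close together and above both DaxxA arrays. Ebf1 was not called over 6 arrays, where vector replicate 2 read 7.89 beside 9.05, 8.95 and 8.98, and was higher by 0.41 without it, while its relative Ebf3 fell by 1.09 over 6 arrays.

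Among matrix glycoproteins and proteoglycans, 9 of 54 genes fell and 2 rose over 6 arrays. Decorin (Dcn), a small proteoglycan that binds collagen, read 10.67, 10.39, 10.67 and 10.61 in vector and 8.96 and 9.01 in DaxxA cells, a 3.02-fold fall. Cemip, which takes part in breaking down hyaluronan, read 8.57, 8.25, 8.43 and 8.52 against 6.93 and 6.85. Gpc4, a glypican that carries heparan sulfate, read 10.31, 10.10, 10.27 and 10.24 against 8.70 and 8.73. None of these groups overlapped, and each gap was over 1 log2 unit. The elastic fibre genes Fbln5, Lox and Mfap2 fell by 1.46, 0.65 and 0.58, and the thrombospondins Thbs1 and Thbs2 by 0.85 and 0.64, on the log2 scale.

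The 2 matrix genes that rose were Pcolce2, which speeds the processing of procollagen, by 0.96, and the syndecan Sdc3 by 0.58. Over the 5 arrays, 26 genes of the list were lower and 6 higher. The nidogens, which link laminin and collagen in basement membranes, differed in opposite directions there: Nid1 was higher by 0.68 and Nid2 was at -1.19. Nid1 read 8.60, 7.76, 8.60 and 8.58 in vector and 9.30 and 9.26 in DaxxA cells, and Nid2 read 8.05, 7.33, 7.86 and 8.12 against 6.86 and 6.79. Neither passed over 6 arrays (limma adjusted p = 0.297 and 0.153), where vector replicate 2 was the lowest vector array for both.

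None of the 26 collagen chain genes passed over 6 arrays by limma. Without vector replicate 2 there were 3 higher (Col1a2, Col8a1 and Col18a1) and 3 lower (Col6a1, Col6a2 and Col12a1), with changes between -0.30 and 0.39. These were 23.1% of the list, against 10.8% of all genes and 18.1% of those at log2 signals of 6.99 to 8.92. Matrix proteases and their inhibitors gave 4 falls and 0 rises among 26 genes over 6 arrays. The aggrecan-cleaving protease Adamts5 read 9.52, 9.21, 9.56 and 9.58 in vector and 8.25 and 8.21 in DaxxA cells, and Adamts1 read 9.66, 9.23, 9.64 and 9.60 against 8.39 and 8.34. Mme, given above, and Timp3, an inhibitor of matrix proteases that fell by 0.58, were the others. Over 5 arrays, 12 were lower and 5 higher, the latter being the inhibitor Timp1 (0.48), Adamts4, Mmp9 and the plasminogen activator genes Plau and Plaur.

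Of the 34 lists, that of contractile, integrin and focal adhesion genes had the most genes called higher without vector replicate 2. Over 6 arrays 2 of 38 rose and 0 fell: Tagln, a smooth muscle actin-binding protein, with 7.25, 7.01, 6.99 and 6.97 in vector and 8.01 and 7.87 in DaxxA cells, and Parvb, a partner of integrin-linked kinase, with 8.16, 7.76, 7.97 and 8.24 against 9.09 and 8.92. Over 5 arrays, 12 were higher and 3 lower. The higher genes included Ankrd1 and Ccn2, known targets of the YAP coactivator, the integrins Itga3, Itga5 and Itga6, and the actin gene Acta2. Acta2 read 11.59, 11.54, 11.58 and 11.58 in vector and 11.93 and 11.85 in DaxxA cells, a difference of 0.31 over 5 arrays. The median of the list was 0.06 over 5 arrays.

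Some of the other lists held 1 or 2 called genes over 6 arrays. Ppargc1a, a coactivator of mitochondrial genes, read 8.44, 8.27, 8.31 and 8.40 in vector and 7.07 and 7.08 in DaxxA cells, a 2.42-fold fall, and it was the single called gene of 31 for mitochondrial respiration over 6 arrays, with 1 higher and 1 lower over 5. Abca1, a transporter that exports cholesterol, read 8.46, 8.42, 8.49 and 8.50 against 7.53 and 7.50. It was the single called gene of 29 on the list named for cholesterol and fatty acid synthesis in both fits. No synthesis gene of that list was thus called. Sod3, the extracellular superoxide dismutase, read 9.13, 9.09, 9.03 and 9.02 against 7.90 and 7.93, a 2.22-fold fall, and Gsta4 was the other called gene of the 33 NRF2 targets and glutathione transferases over 6 arrays. The lysosomal protease Ctsz fell by 0.52, the single called gene of 31 for autophagy and lysosome over 6 arrays. The imprinted genes held 2 falls of 26, Dcn and Igf2, both given above. Leaving out vector replicate 2 gave 5 higher and 6 lower genes for the NRF2 list (33.3%). It gave 2 and 7 for autophagy and lysosome (29.0%) and 2 and 4 for imprinted genes (23.1%). The share was 6.45% for mitochondrial respiration and 3.45% for cholesterol and fatty acid synthesis. Of all genes 10.8% were called, and 18.1% of those at log2 signals of 6.99 to 8.92.

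No gene passed over 6 arrays by limma among 43 of cell cycle and DNA replication, 29 p53 targets and apoptosis genes, 26 of glycolysis and hypoxia, 27 of the unfolded protein response and 22 ribosomal proteins. In the 5-array fit the counts of higher and lower genes were 2 and 3 for the cell cycle, 6 and 3 for p53 and apoptosis, 2 and 1 for glycolysis, 2 and 0 for the unfolded protein response and 1 and 0 for ribosomal proteins. These were 11.6%, 31.0%, 11.5%, 7.41% and 4.55% of the members, against 10.8% of all genes. All measured genes of the cell cycle, unfolded protein response and ribosomal lists lay above the olfactory guide value by their mean. Of all genes at log2 signals of 6.99 to 8.92, 18.1% were called, so 10.8% is a low mark for these lists. The cell cycle genes differed little, from -0.40 for the inhibitor Cdkn2c to 0.25 for cyclin D1 (Ccnd1, 11.08, 11.09, 11.10 and 11.10 in vector and 11.38 and 11.30 in DaxxA cells). Bcl2, which protects from apoptosis, was higher by 0.41 over 5 arrays.

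The list of Daxx partners, H3.3 chaperones and PML body genes had 0 of 26 genes called over 6 arrays by limma. Over 5 arrays, 3 were lower and 0 higher: the histone chaperone Asf1b (11.35, 11.27, 11.33 and 11.31 in vector, 11.12 and 11.03 in DaxxA cells), Ubn1 of the HIRA complex, and Pml itself (9.65, 9.51, 9.62 and 9.66 against 9.46 and 9.41). Their changes were -0.25, -0.22 and -0.21. These 3 were 11.5% of the list, near the 10.8% of all genes called over 5 arrays. Of all genes at log2 signals of 6.99 to 8.92, 18.1% were called, so the count does not set this list apart. Atrx differed by 0.02 over 6 arrays.

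Of 18 fibroblast and stromal markers, 16 were above the olfactory guide value, with Vim, Fn1 and Col1a1 bright in both groups, while Lum and Fap lay below it. The mean over this list was 9.26 to 9.34 in vector and 8.99 and 9.00 in DaxxA arrays. The median change was -0.13 over 6 arrays, with 10 genes below 0 and 8 above. Without vector replicate 2 it was 0.006, with 8 below and 10 above. Large falls of single genes, such as -1.66 for Dcn and -1.64 for Cd34 in that fit, weigh on the mean. Dcn, Cd34 and Pdgfrb fell over 6 arrays, and Pdgfra, Thy1 and Nt5e were added as lower, and Cd44, Col1a2 and Ddr2 as higher, without vector replicate 2. In bulk RNA, fewer cells of a type and less RNA per cell cannot be told apart.

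Over 6 arrays none of the markers of epithelial, endothelial, blood, skeletal muscle, adipocyte, cartilage and bone, neural, and pluripotent or germline cells passed by limma. By their mean, 5 of 11 blood, 7 of 15 epithelial, 6 of 13 endothelial, 8 of 11 muscle, 5 of 11 adipocyte, 5 of 12 cartilage and bone, 8 of 12 neural and 2 of 12 pluripotency and germline markers lay above the olfactory guide value, and the defining genes Ptprc, Epcam, Cdh1, Pecam1, Cdh5 and Pou5f1 lay below it. Among those above the olfactory guide value were Cd68, Des, Pax7, Map2 and Sox2. Without vector replicate 2, Nes and Map2 were higher, and Sox2, Pparg, Esam and Flt1 lower. These were 25% of the neural, 15.4% of the endothelial and 9.09% of the adipocyte markers, against 10.8% of all genes. In the other lists of this paragraph the share was 0%. Sox2 read 8.12, 8.24, 8.20 and 8.43 in vector and 7.59 and 7.68 in DaxxA cells. The part of these markers in the results above was not tested.

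Xist, the RNA that silences 1 X chromosome in female cells, read 11.84, 11.72, 11.83 and 11.83 in vector and 11.10 and 11.12 in DaxxA cells, a 1.62-fold fall (limma adjusted p = 0.0117). The Y-linked genes Eif2s3y, Kdm5d and Uty lay below the olfactory guide value in both groups. Both groups thus read Xist high and no Y-linked gene of the list.

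The remaining called genes that changed at least 2-fold over 6 arrays all fell. They were Cdh11, Cacna1c, Mn1, Nsg1, Sema5a, Npr3, Setbp1, Plag1, Lypd6, Plxna2, Ccdc80, Abi3bp and Bicc1. Cdh11, the main cadherin of mesenchymal cells, read 10.94, 10.80, 10.91 and 10.96 in vector and 9.61 in both DaxxA arrays. The guidance ligand Sema5a read 9.08, 8.84, 9.10 and 9.12 against 7.80 and 7.79, and Plxna2, a semaphorin receptor, read 9.23, 9.00, 9.22 and 9.20 against 8.03 and 8.08. Every DaxxA value lay below the lowest vector value in these genes. Plag1, a zinc finger factor, fell by 1.18 on the log2 scale, while its relative Plagl1 was at -0.42 over 5 arrays and did not pass over 6. Abi3bp, a matrix protein gene, was the 1 gene whose fall was under 2-fold without vector replicate 2, at 1.96-fold. Its DaxxA signals, 5.75 and 5.82, lay below the olfactory guide value, so the size of its fall is uncertain.

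The DaxxA arrays differed by more than 1 log2 unit from each other in 2 genes. The genes with the widest gaps outside the families left out were the Y RNA genes Rny1 and Rny3 and Slc6a20b, lower in replicate 1, and Tpd52l1, Acer2 and Ssxb5, higher in replicate 1. Rny3 read 11.01 in DaxxA replicate 1 and 11.56 in replicate 2, against 10.12 to 11.21 in vector arrays, and Acer2 read 6.34 and 5.89. None of these 6 genes was called in either fit. Rny1 and Rny3 have many near-identical copies in the genome, so their signal cannot be assigned to 1 gene.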

How the data were processed

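RNA was measured on 8 Affymetrix mouse gene arrays, of which 6 were used. The authors deposited log2 signals made with RMA in Affymetrix Expression Console, per the submitters' processing notes; their versions and parameters are not stated. RMA normally gives arrays a common distribution, but vector replicate 2 has a narrower range in the deposited values.

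Of 35556 probe sets, 21789 had 1 gene symbol in the platform annotation; where a gene had several, the brightest on average across all 8 arrays stood for it (19938 genes). The 1621 with several symbols and the 12146 with none listed were left out. DaxxA was compared with vector in R 4.3.3 with limma 3.58.1 (lmFit and eBayes, 4 residual degrees of freedom, Benjamini-Hochberg over all genes); genes under an adjusted p of 0.05 were called. In a simulation where 200 of 19938 genes were altered, the 6-array fit found 62% of those altered by 1 log2 unit. It found 18% of those altered by 0.5, and 8.05% of its calls were false. The 5-array fit found 96% and 84%, with 4.76% false. These shares describe the simulation alone. They do not give the false share among the 194 or 2156 genes called here, from data in which vector replicate 2 stood apart.

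The comparison, the lists and the named genes were chosen with earlier results of these data known. Named are Daxx, the 15 highest and 15 lowest called genes, the 4 members of each pathway list and 2 of each marker list with the smallest adjusted p, and the 3 genes most different in each direction between the DaxxA arrays; outside the lists this passed over predicted genes, chemosensory receptors, small RNAs whose names start with Mir, Snor, Rnu or n-R, and segments of antigen receptors. The 15 highest and 15 lowest were taken from called genes whose DaxxA values lay apart from all 4 vector values. All 194 called genes met this. Other genes were named after their values were seen. Of 929 list entries 851 were matched, 5 through a newer symbol; 78 genes are not analysed here. Alternatives were each array left out, array weights, quantile or median and MAD scaling, dim genes left out, other probe set rules, a trended robust prior and the replicate number as a block.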

Additional observations from a re-analysis of the deposited data

Results flagged for a closer look

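In 25 named genes and 10 lists, 1 of the 4 vector arrays stood apart by Dixon's ratio, the gap to the nearest array divided by the range of the 4, at the 95% level. Chance alone marks about 1 in 20 groups chosen without regard to their values. Here 25 of 181 named genes and 10 of 34 lists were marked. Some of these genes were named after their values were seen, so that rate is no measure for them. For 22 of the genes and all 10 list means the array apart was vector replicate 2. It was the lowest vector array in 20 of the 22 genes and the highest in 6 of the 10 lists.

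The ratios for single genes with vector replicate 2 apart were 0.941 for Svep1, 0.985 for Rasl11a, 0.967 for Fat4, 0.855 for Adamts5, 0.868 for Adamts1, 0.893 for Aldoa, 0.882 for Mcoln1, 0.894 for Ndufs3, 0.878 for Xist, 0.940 for Uty, 0.848 for Wnt5a, 0.847 for Fgf10, 0.869 for Id3, 0.891 for Lef1, 0.845 for Usp18, 0.868 for Tnfaip2, 0.967 for Nid1, 0.958 for Thbs2, 0.837 for Ankrd1, 0.916 for Ebf1, 0.884 for Sema5a and 0.875 for Plxna2. Vector replicate 1 stood apart in 3 genes, with a ratio of 0.847 for Tagln, 0.890 for Sox11 and 0.902 for Gbp4.

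The ratios for list means were 0.841 for Daxx partners, H3.3 chaperones and PML bodies, 0.976 for matrix glycoproteins and proteoglycans, 0.919 for unfolded protein response and ATF4 targets, 0.849 for cholesterol and fatty acid synthesis, 0.892 for endothelial markers, 0.938 for blood cell markers, 0.908 for skeletal muscle markers, 0.837 for neural and glial markers, 0.894 for pluripotency and germline markers and 0.967 for sex chromosome genes.

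Probe sets outside the gene table also held differences between DaxxA and vector arrays: in a limma fit over all probe sets, 3 of 1621 with several gene symbols and 5 of 12146 with no symbol listed passed an adjusted p of 0.05, against 106 of 21789 with 1 symbol. Without vector replicate 2 the counts were 32, 153 and 846.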

How the results depend on the processing

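Called genes numbered 194 (34 higher, 160 lower). With array weights the count was 2566 (1076 higher, 1490 lower), with quantile scaling 413 (104 and 309), with dim genes left out 401 (111 and 290) and with a trended robust prior 350 (92 and 258). Leaving out arrays gave 0 to 2156 called genes, 0 to 837 higher, 0 to 1323 lower and 0 to 61 at 2-fold. The number of lists with a called gene was 29 with array weights and ranged from 0 to 29 when arrays were left out. Median and MAD scaling called 158 genes, of which 120 were among the 194. The other probe set rules called 194 and 198 genes, with 194 and 193 shared. With dim genes left out fewer genes were tested; for the other settings the cause was not tested.

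Sample titles share only the numbers 1 and 2 between the groups. Deviations from the group mean correlated at 0.162 and 0.118 for equally numbered samples, and at -0.162 to 0.0803 for the others. With 2 DaxxA arrays their deviations mirror each other, so these values cannot decide pairing, and pairing was not established. With the replicate number as a block, 1 residual degree of freedom was left, limma called 0 genes (0 higher, 0 lower, 0 at 2-fold), 915 passed at an unadjusted p under 0.05, and 0 lists held a called gene. The sign of Id3 turned there, to 0.098.

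Uncalled genes turned sign under some settings. Median and MAD scaling gave Senp1 -0.022, Ccng1 -0.048, Creld2 -0.025 and Atp5c1 -0.037. Leaving out arrays gave ranges of -0.213 to 0.370 for Slc6a20b, -0.370 to 0.142 for Tpd52l1, -0.437 to 0.021 for Acer2, -0.092 to 0.410 for Ssxb5, -0.277 to 0.0088 for Krt18, -0.328 to 0.014 for Uty and -0.388 to 0.013 for Axin2. Signals near the olfactory guide value limit what can be seen in dim genes.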
